A study of Sus scrofa with 44 samples.

Results

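The regions described here are the m6A peaks of PK15 cells that span an exon junction, defined as the peaks whose deposited entry holds at least 2 blocks separated by a gap. There were 6661 of them among 26151 PK15 peaks, and 70975 peaks were listed in the whole series. The list from polyA RNA gave 3985 junction-spanning peaks of 16492, or 24.2% (95% Wilson interval 23.5% to 24.8%). The list from rRNA-depleted RNA gave 2676 of 9659, or 27.7% (26.8% to 28.6%). All other peaks, 12507 and 6983, lay in 1 block. Among peaks at or above each list's median fold the shares were 25.3% and 17.3%.

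PK15 is a pig kidney cell line, labelled adult. By MeRIP-seq, RNA carrying N6-methyladenosine (m6A) was pulled down with a Synaptic systems antibody, and each RNA preparation had 2 such samples beside 2 input samples. The muscle lists used for comparison come from fetal longissimus dorsi at E33, E40, E50, E60, E70 and E95 (days after conception), each stage with 3 inputs and 3 pulldowns, all of rRNA-depleted RNA. No treatment or genotype is named for any group, and the stated purpose of the series is m6A in prenatal muscle formation. There is 1 peak list for each preparation and stage, so no difference between lists could be tested against replicate spread, the depth behind a peak is unknown, and intervals cover counting error only. All PK15 samples are of a single cell line, and nothing in the labels says whether the 2 samples of a group came from separate cultures.

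N6-methyladenosine is the most common internal modification of eukaryotic mRNA. It is laid down by a complex around METTL3 and METTL14, usually in the sequence context called DRACH (A, G or T, then A or G, then A, C, and last A, C or T), and it is read by YTH domain proteins that act on splicing, translation and decay. Known sites crowd in long internal exons and near stop codons. The exon junction complex, which splicing deposits upstream of junctions, is known to keep methylation away from its surroundings, so peaks over short exons and their junctions are the less usual kind. In MeRIP-seq the RNA is fragmented, and a fragment of spliced RNA can cross a junction and carry signal from a site in 1 exon into the next.

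The 5 whole peaks and 4 short junction windows printed next show what such regions look like in spliced sequence. All were read from the RefSeq genome Sscrofa11.1 in transcript direction and lie in coding sequence. Capitals mark the DRACH matches of the whole peaks and, in the windows, only the match across the junction. The first 3 are whole peaks of the polyA list whose junctions are the same in the rRNA-depleted list. KAT6B, a histone acetyltransferase, had a peak at chr14:77590584-77593744 (plus strand), 16 bases before 225 in exon 18 of 18, with a fold enrichment of 6.46 in the polyA list and 6.17 in the rRNA-depleted list. CTDSPL, a small phosphatase, had one at chr13:22820005-22825143 (plus strand) of 140 and 126 bases, with 5.83 and 8.4. CENPF, a kinetochore protein, had one at chr9:128956075-128957557 (minus strand) of 43 and 228 bases, with 5.49 and 5.65.
KAT6B: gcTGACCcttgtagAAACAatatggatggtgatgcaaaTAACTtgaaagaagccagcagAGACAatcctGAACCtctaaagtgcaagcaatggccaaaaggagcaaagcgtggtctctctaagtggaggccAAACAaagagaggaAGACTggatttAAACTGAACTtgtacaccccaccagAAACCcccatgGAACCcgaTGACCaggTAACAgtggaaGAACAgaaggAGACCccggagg
CTDSPL: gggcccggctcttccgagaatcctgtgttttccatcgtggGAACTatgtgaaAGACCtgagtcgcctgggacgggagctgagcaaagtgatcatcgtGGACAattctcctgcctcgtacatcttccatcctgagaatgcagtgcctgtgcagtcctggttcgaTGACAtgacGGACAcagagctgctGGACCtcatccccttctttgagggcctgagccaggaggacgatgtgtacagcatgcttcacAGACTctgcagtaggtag
CENPF: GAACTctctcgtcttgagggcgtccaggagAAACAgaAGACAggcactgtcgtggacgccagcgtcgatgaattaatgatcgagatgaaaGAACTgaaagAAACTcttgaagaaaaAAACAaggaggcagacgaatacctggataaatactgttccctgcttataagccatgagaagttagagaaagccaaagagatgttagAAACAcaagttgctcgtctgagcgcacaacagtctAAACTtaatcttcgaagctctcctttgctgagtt
The KAT6B peak held 15 DRACH matches and 0 of the stronger form GGAC followed by A, C or T. The CTDSPL peak held 7 and 3, and the CENPF peak 8 and 0.

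The next 2 peaks are examples from the rRNA-depleted list that had no counterpart in the polyA list but recurred in all 6 muscle lists. Their folds are high for that list. The 993 junction-spanning rRNA-depleted peaks without a polyA counterpart had a median fold of 2.47. DVL3, a Wnt signal transducer, had a peak at chr13:122084801-122085953 (plus strand) of 19, 150 and 11 bases with a fold of 5.6. U2SURP, a splicing factor, had one at chr13:83744978-83754327 (plus strand) of 49, 111, 119 and 21 bases with a fold of 5.08. The inner blocks, of 150, 111 and 119 bases, are entire exons.
DVL3: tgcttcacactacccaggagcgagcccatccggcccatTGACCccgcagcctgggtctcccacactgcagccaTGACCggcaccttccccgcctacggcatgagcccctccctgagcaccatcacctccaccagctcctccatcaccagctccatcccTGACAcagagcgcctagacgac
U2SURP: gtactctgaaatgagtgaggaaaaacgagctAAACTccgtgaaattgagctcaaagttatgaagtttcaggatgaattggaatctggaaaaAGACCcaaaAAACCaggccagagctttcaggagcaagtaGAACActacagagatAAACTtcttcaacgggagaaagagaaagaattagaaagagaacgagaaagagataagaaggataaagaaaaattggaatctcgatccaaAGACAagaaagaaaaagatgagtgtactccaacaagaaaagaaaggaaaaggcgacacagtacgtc
These held 3 and 6 DRACH matches, and 0 of the GGAC form in either.

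In the 4 windows of 15 bases on each side of a junction, splicing itself makes the motif: the G that ends the upstream exon and the bases that open the downstream exon form GGAC followed by C or T, in capitals. Both PK15 lists hold these junctions. RRP8, a methyltransferase of ribosomal RNA, has its window at chr9:3156103-3156355 (plus strand), across an intron of 223 bases. ELF1, an ETS transcription factor, has its own at chr11:25887871-25894581 (plus strand), across 6681 bases. UGGT1, which checks glycoprotein folding, has its window at chr15:59145781-59148415 (minus strand), across 2605 bases. CCDC88C, a regulator of Wnt signalling, has one at chr7:112953031-112955405 (minus strand), across 2345 bases.
RRP8: aaggtcatctccaaGGACCtgaccaacagc
ELF1: cgttcagagtattaGGACTctacaggctcc
UGGT1: agccaagccgagaaGGACCtcagaaacgcg
CCDC88C: accacgctgagggaGGACCtggtgcaggag
The peaks around them had folds of 8.72, 7.49, 15.1 and 32.7 in the polyA list and 7.32, 6.7, 5.64 and 5.58 in the rRNA-depleted list, in the same order. Fold enrichment is the authors' value for each peak, under that name in the file. The lists were made separately, so folds are compared within a list only and stand side by side without a comparison of level.

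The gaps between blocks were checked against the annotation, since the name of these regions rests on them. Of the gaps on assembled chromosomes, 80.7% (4352 of 5390) in the polyA list and 90.3% (3869 of 4286) in the rRNA-depleted list matched the first and last base of a RefSeq intron. Of the matching introns, 98.9% and 99.1% opened with GT and closed with AG. All gaps matched in 3052 of the 3906 polyA peaks on chromosomes (78.1%) and in 2295 of the 2637 rRNA-depleted peaks (87.0%). The label does not hold for every member: 258 and 115 gaps were under 50 bases, too short for a usual intron, and in 140 and 71 peaks there was no longer gap. A further check found 248 and 123 gaps wholly inside a single RefSeq exon. TRIM26, ZBTB4, CAMSAP2 and B4GALNT3, which appear again among the highest folds, have gaps of 2, 1, 35 and 39 bases and cross no RefSeq intron. UBA1, the member with the highest fold, and KLHDC7A cross none either, with gaps of 955 and 952 bases. Gaps of at least 50 bases with no RefSeq match opened and closed with GT and AG in 33.1% (265 of 800) and 48.1% (148 of 308).

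Most members crossed a single junction. In the polyA list 2971 peaks (74.6%) had 2 blocks, 709 had 3, 193 had 4 and 112 had 5 or more. Of the rRNA-depleted members 1656 (61.9%) had 2 blocks, 632 had 3, 239 had 4 and 149 had 5 or more. Junction-spanning peaks were longer in exonic bases, the summed length of their blocks. Their median was 329 bases (quartiles 210 and 540) against 241 (151 and 391) for 1-block peaks in the polyA list, and 241 (180 and 361) against 210 (121 and 300) in the rRNA-depleted list. The latter difference, 31 bases, was 146 among peaks at or above the list's median fold and 60 where the second longest block had at least 30 bases. A longer peak has more room to meet a junction, so length and block number are tied by construction. From the first to the last base on the genome, introns included, the median span was 2436 and 2566 bases.

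The blocks of a peak were uneven in size. The shortest block had a median of 39 bases in the polyA list and 35 in the rRNA-depleted list, against 237 and 152 for the longest. It was under 50 bases in 59.9% (2389 peaks) and 64.4% (1723), and under 10 bases in 13.5% and 14.7%. In 48.5% of polyA peaks and 31.3% of rRNA-depleted peaks, at least 80% of the exonic length lay in the longest block, so that such a peak sat mainly in 1 exon and reached into its neighbour. Among peaks of 3 or more blocks, the shortest block was at an end in 81.5% (826 of 1014) and 87.3% (890 of 1020). End blocks are cut by the ends of the peak and inner blocks run from gap to gap, so these shares are tied in part to construction. The inner blocks of these peaks had medians of 109 bases (quartiles 70 and 161.5, 1519 blocks) and 105 (74 and 145, 1668 blocks).

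COL6A1, a chain of collagen VI, held the peak with the most blocks. It lay at chr13:208299057-208302625 in the polyA list, had 12 blocks of 27 to 63 bases over 537 exonic bases and a fold of 6.29, and all 11 gaps were RefSeq introns. It had no counterpart in the rRNA-depleted PK15 list, while E33, E40, E50 and E95 muscle each had a 4-block peak there with folds of 2.4, 2.65, 1.7 and 1.71. CDK11B, a kinase of splicing and the cell cycle, had 10 blocks over 1110 bases and a fold of 118, and the rRNA-depleted list had a 6-block peak of 570 bases and a fold of 3.6 there. TCHP, a keratin-binding centrosomal protein, had 10 blocks over 1200 bases and a fold of 7.05, beside 4 blocks, 391 bases and 3.46.

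ABCF1, a translation factor, had the most blocks of the rRNA-depleted list, 10 over 840 bases with a fold of 3.02, and 9 blocks in E33, E40, E70 and E95 muscle. ZC3H13, a subunit of the m6A writer, had 9 blocks over 2938 bases and a fold of 6.9, the longest exonic length of any rRNA-depleted member. TOP1, topoisomerase I, had 9 blocks over 687 bases and a fold of 3.69. The TOP1 peak had 9 blocks in every muscle list except E60, with 8, and its folds there ran from 3.55 to 7.05. How reads of near-identical gene copies were assigned, which bears on families such as CDK11, is not given in the sources used here.

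Place in the transcript separated the classes. The midpoint of the exonic bases lay in coding sequence, more than 200 bases from the stop codon, in 55.8% of junction-spanning polyA peaks (54.3% to 57.4%) against 34.9% of 1-block peaks (34.1% to 35.7%). The shares were 75.3% (73.7% to 76.9%) and 47.2% (46.0% to 48.4%) in the rRNA-depleted list. Only 2.31% and 0.635% of junction-spanning peaks lay in the 3′ UTR, against 20.5% and 16.0% of 1-block peaks. Within 200 bases of the stop codon the classes were alike in the polyA list, 22.7% against 21.9%, and apart in the rRNA-depleted list, 16.1% against 23.7%. The 5′ UTR held 11.9% of junction-spanning peaks in the polyA list and 3.29% in the rRNA-depleted list. Pig 3′ UTRs lie mostly in 1 long exon and coding exons are short, and the part of gene structure in these shares was not tested.

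**Figure D1:**
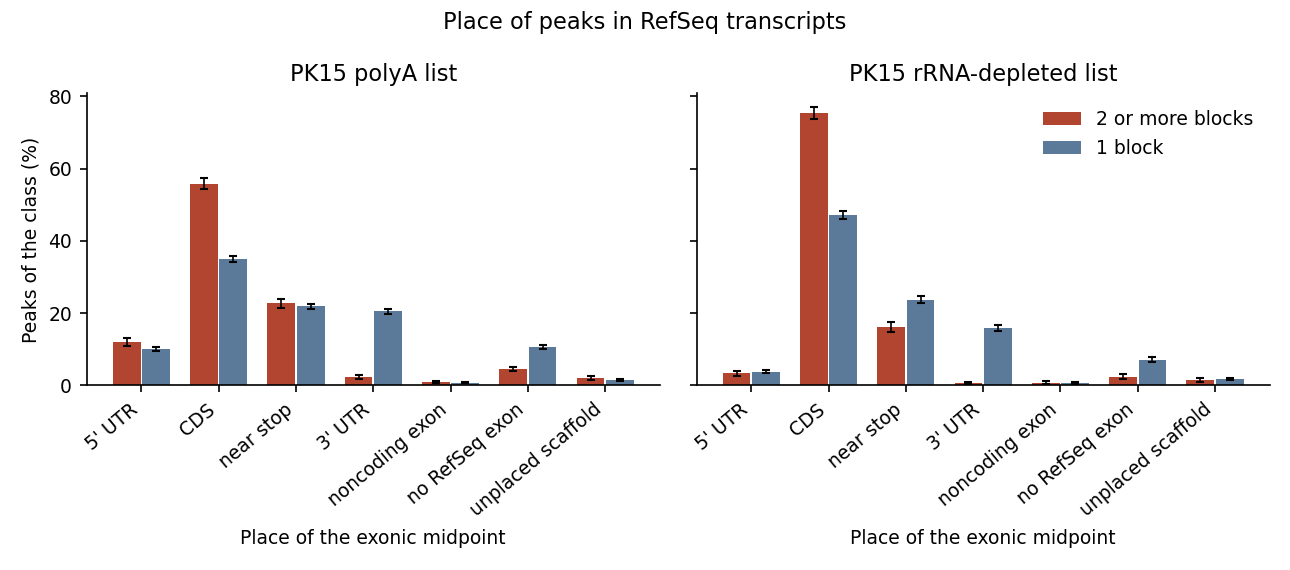
Share of peaks (y axis, percent of the class) by the place of the exonic midpoint in RefSeq transcripts (x axis), for the polyA list (left) and the rRNA-depleted list (right); bars are the peaks of 2 or more blocks and of 1 block, and error bars are 95% Wilson intervals for counting error. Coding sequence holds 55.8% and 75.3% of junction-spanning peaks, and the 3′ UTR 2.31% and 0.635%.

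The exon at the midpoint was shorter for junction-spanning peaks. Its median length was 505 bases against 1518 in the polyA list and 207 against 1519 in the rRNA-depleted list. The midpoint fell in the last exon in 32.7% against 60.1%, and in 16.7% against 58.0%. A peak meets a junction only at an exon end, so both differences are tied in part to the class by construction. How large that part is was not tested. Among peaks in coding sequence, the exon was 499 bases long for junction-spanning polyA peaks that overlapped the rRNA-depleted list and 250 for those that did not. For the rRNA-depleted list these medians were 273 and 150 bases, and the quartiles of the second set were 111 and 197. The 1-block coding peaks had the same order, with 1581 and 1183 bases in the polyA list and 1498 and 435.5 in the rRNA-depleted list, so it is not particular to junction-spanning peaks.

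**Figure D2:**
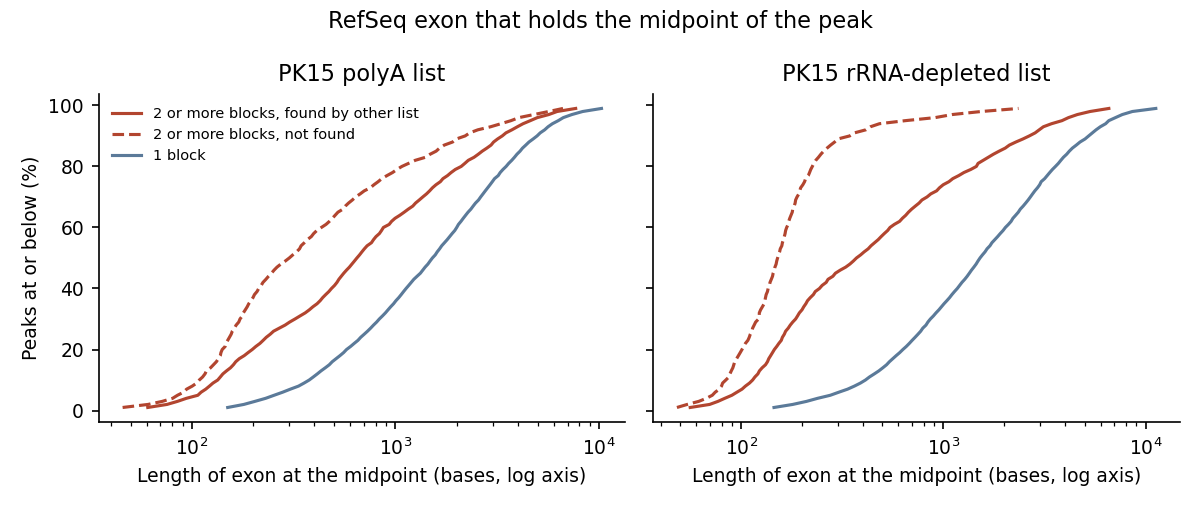
Cumulative share of peaks (y axis, percent) by the length of the RefSeq exon that holds the exonic midpoint (x axis, bases, log scale); solid red lines are junction-spanning peaks that overlap the other PK15 list, dashed red lines those that do not, and blue lines 1-block peaks. The dashed line of the rRNA-depleted list rises earliest, and among its coding peaks the median exon is 150 bases.

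A junction-spanning peak was held by 3313 of the 8479 genes with a polyA peak (39.1%) and by 2032 of the 5333 genes with an rRNA-depleted peak (38.1%). Peaks at or above the median fold alone gave 1912 and 777 genes. Of all genes with a member, 1392 and 1062 had no 1-block peak. Both lists gave a junction-spanning peak to 1419 genes, 42.8% of the polyA genes and 69.8% of the rRNA-depleted genes. At least 3 such peaks were found in 92 and 124 genes. MYH9, the heavy chain of non-muscle myosin, had the most in the polyA list, 6 peaks of 21 blocks in all and folds of 1.93 to 3.82.

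Fold enrichment of the classes lay apart in the rRNA-depleted list and close together in the polyA list. Junction-spanning rRNA-depleted peaks had a median fold of 3.075 (quartiles 2.37 and 4.34), against 4.32 (3.06 and 6.27) for 1-block peaks. The medians were also lower in each of the 6 muscle lists, at 2.92 to 3.76 against 3.75 to 5.36. In the polyA list the median was 7.82 (4.28 and 14.4) against 7.28 (4.2 and 13.8), and the order turned at matched length: among peaks of 150 to 300 exonic bases it was 5.21 against 5.83. Among coding peaks the medians were 7.46 against 7.56, a difference smaller than its counting interval of 0.473 to either side. The polyA difference of 0.54 was 0.19 for members with all gaps at RefSeq introns and 1.1 for those with a second block of at least 30 bases. For rRNA-depleted RNA the medians at 150 to 300 bases were 2.85 against 4.27, and in coding sequence 2.97 against 4.49.

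**Figure D3:**
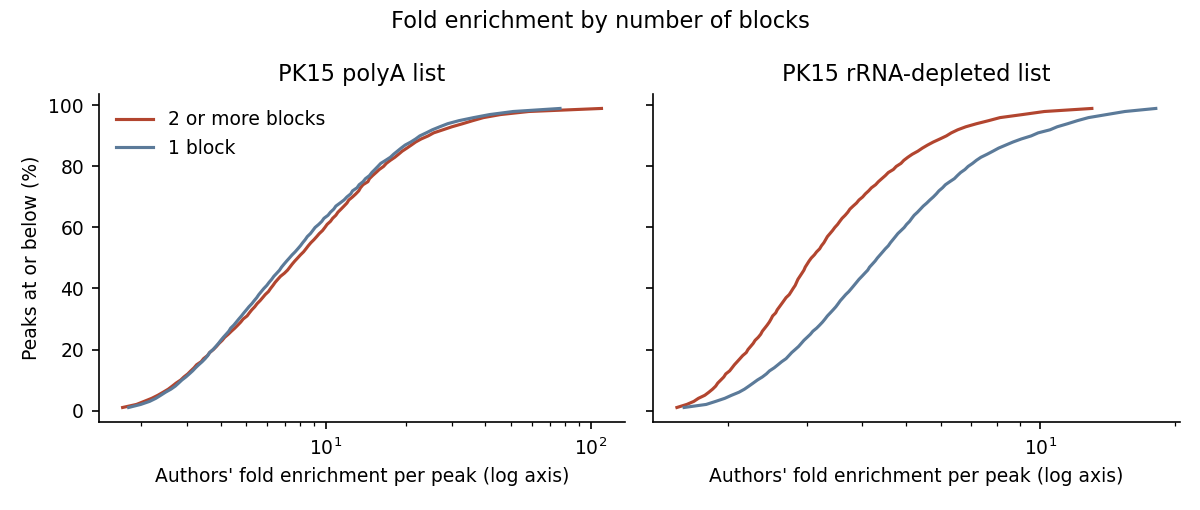
Cumulative share of peaks (y axis, percent) by the authors' fold enrichment (x axis, log scale) for peaks of 2 or more blocks (red) and 1 block (blue). The curves nearly coincide in the polyA list, with medians of 7.82 and 7.28, and in the rRNA-depleted list the junction-spanning curve lies to the left, with medians of 3.075 and 4.32.

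The 5 members with the highest fold and a symbol were different genes in each list. In the polyA list they were UBA1 (465), the ubiquitin-activating enzyme, PPP1CA (404), a catalytic subunit of protein phosphatase 1, TRIM26 (377), a ubiquitin ligase, TAF15 (330), an RNA-binding protein, and AEBP2 (322), a partner of the Polycomb complex PRC2. UBA1, PPP1CA and TAF15 had no overlapping rRNA-depleted peak, while TRIM26 and AEBP2 had 2-block peaks there with folds of 2.51 and 4.37. The rRNA-depleted ones were CAMSAP2 (31.9), which binds microtubule minus ends, PHF20L1 (29.3), a reader of methyl-lysine, WAC (21.7), an adaptor in histone ubiquitination, B4GALNT3 (19.4), a glycosyltransferase, and PHF3 (18.9), which binds RNA polymerase II. All 5 had polyA counterparts, with folds of 55.0, 3.81, 7.73, 52.2 and 11.8. WAC and PHF3 had a first block of 13 and 40 bases before 197 and 1548 bases in the last exon.

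Overlap between the PK15 lists ran in opposite directions for the classes. A peak was counted as overlapping if it shared at least 1 exonic base on the same strand with a peak of the other list. Of junction-spanning polyA peaks, 2412 (60.5%; 59.0% to 62.0%) overlapped the rRNA-depleted list, against 35.6% of 1-block polyA peaks (34.8% to 36.5%) and 41.7% of all polyA peaks. Of junction-spanning rRNA-depleted peaks, 1683 (62.9%; 61.0% to 64.7%) overlapped the polyA list, against 86.1% of 1-block peaks (85.2% to 86.9%) and 79.6% of all rRNA-depleted peaks. Seen from the longer list junction peaks were the better shared class, and seen from the shorter list the less shared one.

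The contrast was seen within quartile groups of fold too. In the polyA list overlap went from 52.0% in the lowest group to 70.6% in the highest for junction-spanning peaks, and from 27.4% to 42.7% for 1-block peaks. In the rRNA-depleted list the 2 classes were at 39.6% and 59.3% in the lowest group, at 65.7% and 86.9% in the second, and at 93.1% and 96.2% in the highest, where their intervals met (89.8% to 95.4% and 95.3% to 96.9%). The class difference in the rRNA-depleted list was thus smaller at high fold. Among peaks of 150 to 300 exonic bases the shares were 40.3% and 23.3% in the polyA list and 54.4% and 88.2% in the rRNA-depleted list. In coding sequence they were 66.2% and 45.1%, and 57.8% and 85.3%. Between peaks at or above the median fold of both lists, the class difference was 16.3 percentage points in the polyA list and -16.5 in the rRNA-depleted list.

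**Figure D4:**
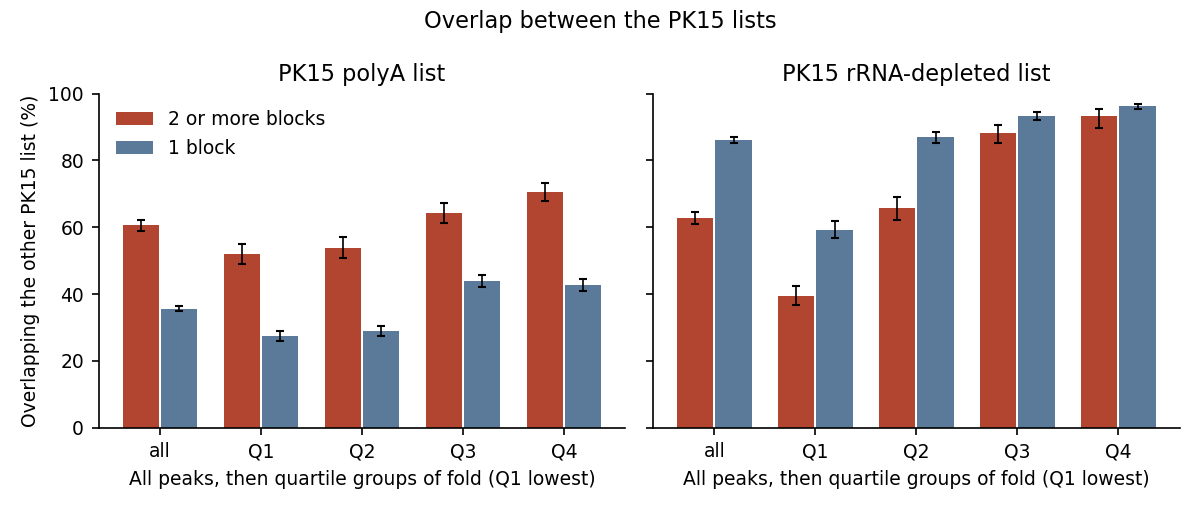
Share of peaks that overlap the other PK15 list (y axis, percent) over all peaks and in quartile groups of fold within the list (x axis, Q1 lowest); bars are the peaks of 2 or more blocks and of 1 block, and error bars are 95% Wilson intervals for counting error. Junction-spanning peaks stand higher in the polyA list (60.5% against 35.6%) and lower in the rRNA-depleted list (62.9% against 86.1%), and at high fold the bars draw together in the rRNA-depleted panel only.

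More blocks went with more overlap in the polyA list, from 55.7% of 2-block peaks to 70.0% of 3-block, 83.9% of 4-block and 87.5% of peaks with 5 or more blocks. The same steps in the rRNA-depleted list gave 62.4%, 58.7%, 66.1% and 80.5%. Median exonic length also grew with block number, from 300 to 599 bases in the polyA list and from 210 to 566 in the rRNA-depleted list, and its part in the overlap was not tested. From 2 to 3 blocks in the rRNA-depleted list the median went from 210 to 241 bases. The intervals of the overlap shares met there (60.1% to 64.7% and 54.8% to 62.5%).

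Where junction-spanning peaks of both lists met, most held the same junction. If blocks follow transcript models, peaks that overlap on the same model share gaps largely by construction. How the blocks were drawn is not given, so this sharing does not show that reads of both preparations cross a junction. Of 1425 polyA members that overlapped a junction-spanning rRNA-depleted peak, 1384 (97.1%) shared at least 1 junction with it, and 814 (57.1%) had exactly the same set. From the rRNA-depleted list 1437 members met one, 1395 shared a junction and 813 had the same set. Outer ends matched too in only 48. A further 987 polyA members and 246 rRNA-depleted members met only 1-block peaks of the other list. Counted as junctions, the lists held 5457 and 4310 distinct ones and shared 2000, which is 36.7% of the polyA junctions and 46.4% of the rRNA-depleted ones.

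There were 833 pairs with identical junction sets. Their median exonic length was 391 bases in the polyA list and 300 in the rRNA-depleted list. The 8 pairs with the highest lower fold were CAMSAP2 (55.0 in the polyA list, 31.9 in the rRNA-depleted list), B4GALNT3 (52.2 and 19.4), SYMPK (21.9 and 14.3), EMSY (14.8 and 14.0), KLHDC7A (13.1 and 16.4), IRX5 (21.8 and 13.1), ZBTB4 (58.5 and 12.9) and TEX2 (19.9 and 12.8). Among these the gap was a RefSeq intron in every case only for SYMPK, a scaffold of 3′ end processing, and EMSY, a BRCA2-binding regulator. SYMPK had its pair between exons 1 and 2, with midpoints in the 5′ UTR, with blocks of 94 and 117 bases against 94 and 87. EMSY had 27 bases before 484 and 364 in its last exon. KLHDC7A had a gap of 952 bases inside a single RefSeq exon of 8609 bases.

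The fetal muscle lists, made from rRNA-depleted RNA of another tissue, gave a further view. Of junction-spanning rRNA-depleted PK15 peaks, 78.5% (2101 peaks) overlapped a peak of at least 1 muscle list, against 68.7% of 1-block peaks (67.6% to 69.7%) and 71.4% of all peaks of that list. For the polyA list the shares were 54.4% (52.8% to 55.9%), 38.3% (37.4% to 39.1%) and 42.2%. Among peaks of 150 to 300 exonic bases the polyA shares were 36.9% against 28.8%, and the rRNA-depleted ones 76.4% against 70.7%. In coding sequence they were 60.2% against 51.6%, and 79.4% against 73.9%. The order turned in the rRNA-depleted 5′ UTR (62.5% against 66.0%) and 3′ UTR (52.9% against 61.0%), with intervals that met. The part of length and place was not tested. Overlap with all 6 muscle lists was found for 39.5% of junction-spanning and 22.9% of 1-block rRNA-depleted peaks, and for 26.0% and 11.5% of polyA peaks.

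The 993 junction-spanning rRNA-depleted peaks without a polyA counterpart overlapped muscle peaks in 69.1% (66.1% to 71.9%), and the 1573 polyA members without an rRNA-depleted counterpart in 15.3% (13.6% to 17.2%). Peaks of 1 block without a counterpart were split in the same direction, at 54.7% (532 of 973) and 18.9% (1524 of 8050), so this split is not particular to junction-spanning peaks. By stage the members' rRNA-depleted share ran from 33.2% at E60 to 57.3% at E33, and their polyA share from 2.54% at E40 to 8.26% at E33. The muscle lists differ in size, from 4928 peaks at E40 to 8685 at E33, and the part of list size in these shares was not tested. Single junctions gave the same order: a muscle list held 64.6% (1492 of 2310) of the junctions of the rRNA-depleted list alone, 9.31% (322 of 3457) of those of the polyA list alone and 74.95% (1499 of 2000) of those in both. The preparation is shared between the rRNA-depleted PK15 and muscle lists and differs for the polyA list, so recurrence across tissues and the effect of the preparation cannot be told apart.

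All 8 lists held 750 junctions, in 433 genes, and 656 of these were RefSeq introns of at least 50 bases. RUNX1T1, a transcriptional corepressor, led them by its lowest fold, with 13.5 in the polyA list, 9.88 in the rRNA-depleted list and 7.8 to 15.5 in muscle, over an intron of 14723 bases. NCOA2, a nuclear receptor coactivator, had 18.6, 7.83 and at least 6.66 in muscle. SEMA3C, a secreted guidance protein, had 14.9, 9.54 and 6.44 to 10.1. These genes were chosen after their values were seen.

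The stronger motif, GGAC followed by A, C or T, was denser in members than in the rest of the same transcripts, on the transcript strand of the spliced sequence with overlapping matches counted. Per 100 bases it occurred 0.573 times in junction-spanning polyA peaks, 0.547 times in 1-block peaks and 0.319 times in the remaining exonic sequence of the members' transcripts. For the rRNA-depleted list the densities were 0.466, 0.599 and 0.322. At equal length, the central 150 bases of each peak long enough to hold them were searched, which left out more 1-block than junction-spanning peaks. Of the polyA peaks on chromosomes, 3541 of 3906 junction-spanning and 9751 of 12326 1-block ones gave a window. The motif was present in 57.9% and 58.7% of these windows, and in 36.02% of windows of the remaining sequence. The shares for the rRNA-depleted list were 48.1% (46.0% to 50.1%), 60.5% (59.2% to 61.9%) and 36.2%.

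The full DRACH motif, which contains the GGAC form, separated the sequences less. It had 2.11 matches per 100 bases in junction-spanning polyA peaks and 2.20 in rRNA-depleted ones, beside 1.82 and 1.86 in the rest of the transcripts. The reversed motif, a control of equal composition, had 2.31 and 2.66 beside 2.28 and 2.29. It was therefore as frequent as DRACH or more so, in peaks and outside them.

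Members without a counterpart differed between the lists in motif content too. Windows of rRNA-depleted members held the GGAC form in 50.8% (48.3% to 53.3%) when the polyA list had a counterpart and in 42.1% (38.6% to 45.8%) when it had none. For 1-block peaks of that list the shares were 62.7% and 38.7%. In the polyA list members without a counterpart held it in 60.8% (58.0% to 63.4%) and those with one in 56.3% (54.2% to 58.3%). The median GC content was 61.2% and 55.2% in the polyA members without and with a counterpart, and 51.0% and 53.6% in the rRNA-depleted ones. In the 1-block rRNA-depleted peaks it was 56.9% and 56.4%. The part of base composition in the motif shares of either class was not tested.

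**Figure D5:**
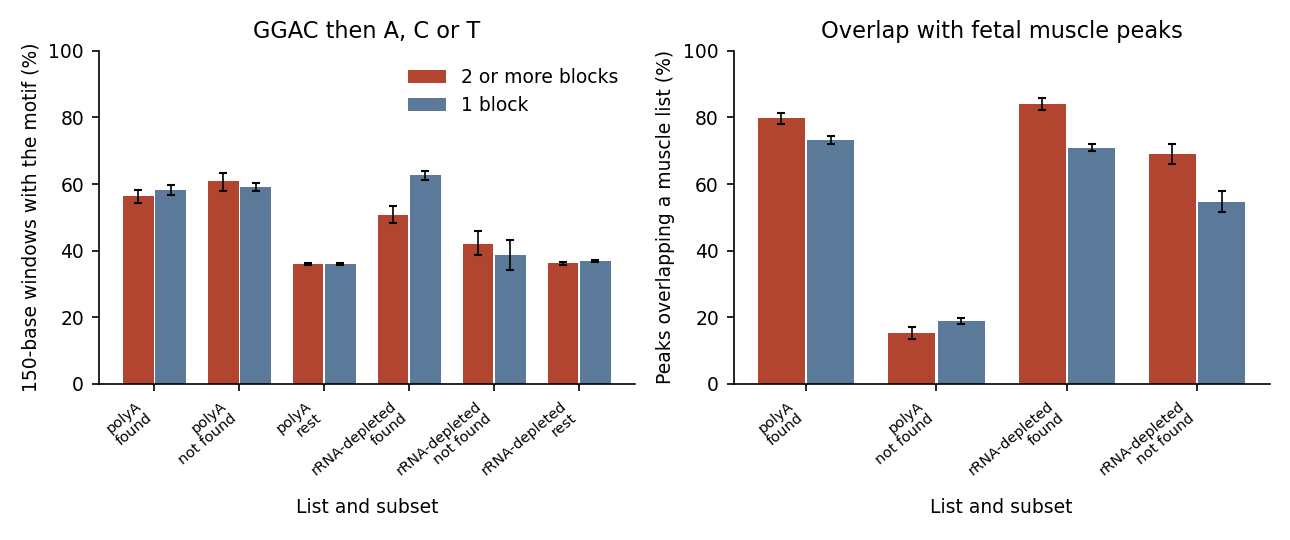
Left, share of 150-base windows that hold GGAC followed by A, C or T (y axis, percent) in peaks found and not found by the other PK15 list and in the rest of the same transcripts; right, share of peaks that overlap at least 1 of the 6 fetal muscle lists (y axis, percent). Bars are the peaks of 2 or more blocks and of 1 block and error bars are 95% Wilson intervals for counting error; junction-spanning peaks of the rRNA-depleted list alone stand at 42.1% on the left and 69.1% on the right, and those of the polyA list alone at 60.8% and 15.3%.

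The motif also lay across the junctions themselves. At the 4 start positions from which a 5-base motif crosses a junction, the GGAC form was found at 0.761 per 100 positions in the polyA list and 0.660 in the rRNA-depleted list, against 0.588 and 0.465 elsewhere in the same peaks. DRACH as a whole was less frequent across junctions than elsewhere, 1.81 against 2.21 and 1.99 against 2.28. These values cover the peaks whose gaps are all RefSeq introns. In them 123 of 4108 junctions (2.99%) and 97 of 3720 (2.61%) had the GGAC form across them, and 50 were in both lists, among them RRP8, ELF1, UGGT1 and CCDC88C, whose windows were shown above. Exon ends follow splice site sequence, so positions at a junction are not like other positions.

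Some genes of the m6A machinery carried such peaks themselves. Of 22 listed writers, erasers and readers, 21 were matched, and a junction-spanning peak was found in 9 of the 18 with a polyA peak and in 7 of the 16 with an rRNA-depleted peak. This is 50.0% and 43.8%, beside 39.1% and 38.1% over all genes with a peak, on few genes and with no test. Of the writer subunits, ZC3H13 had 3 members in each list, and its 9-block rRNA-depleted peak covered polyA members of 2 and 3 blocks with folds of 19.0 and 103. WTAP, the regulatory subunit, had a polyA member of 20 and 577 bases with a fold of 21.4 into its last exon, and the rRNA-depleted list had a 1-block peak of fold 6.51 there. VIRMA, the scaffold of the complex, had members of 2 blocks with folds of 8.97 and 5.41 in the polyA list, and of 4 and 2 blocks with folds of 2.95 and 3.24 in the rRNA-depleted list.

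FTO, a demethylase, had a 2-block polyA member with a fold of 9.63 over exon 3, where the rRNA-depleted list had a 1-block peak of 3.45. Of the readers, YTHDC1, the nuclear one, had 3 polyA members with folds of 6.6, 119 and 6.49, and the rRNA-depleted list had the same junctions with 2.61, 4.05 and 12.9, and a further member of 2.52. Its last junction was among those in all 8 lists. YTHDF2 and YTHDF3, cytoplasmic readers, had 2-block peaks on their long coding exons of 1587 and 1599 bases in both lists, with folds of 17.3 and 6.85 and of 13.5 and 7.31. YTHDF1 had a polyA member of 1465 bases and a fold of 17.8 on a coding exon of 1518 bases. Its rRNA-depleted member, of 151 bases and a fold of 2.45, had its midpoint outside RefSeq exons, while its gap was a RefSeq intron. HNRNPA2B1, a nuclear RNA-binding protein, had a 6-block polyA member with a fold of 6.82.

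The exon junction complex and its partners in nonsense-mediated decay were listed next. Of 17 listed genes 14 were matched, and 7 of the 14 with a polyA peak and 6 of the 10 with an rRNA-depleted peak held a junction-spanning one. This is 50.0% and 60.0%, beside 39.1% and 38.1% over all genes with a peak, on few genes and with no test. CASC3, a core component, had 2 polyA members with folds of 9.05 and 2.22 and 3 rRNA-depleted members with 3.22, 2.82 and 2.25. UPF3B, which bridges the complex to decay, had a 6-block peak in each list, of 987 and 808 bases with folds of 9.48 and 4.98. UPF2 had polyA members with folds of 18.6 and 4.33, and rRNA-depleted members with 5.35 and 3.28 at the same places. PNN, a peripheral component, had a 7-block rRNA-depleted member of 1051 bases and a fold of 3.68. Its polyA members had folds of 7.3 and 10.2. SMG1, the kinase of UPF1, had members at different places, with a fold of 2.72 near the stop codon in the polyA list and 3.2 in exon 45 of 63 in the rRNA-depleted list. SMG6 and SAP18 had polyA members only, with folds of 13.3 and 14.6. The rRNA-depleted list had 1-block peaks at both places, with folds of 4.3 and 2.71.

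Markers of the labelled cell type were checked in the same lists. Of 14 listed kidney epithelial genes 12 were matched, and 8 had a polyA peak and 7 an rRNA-depleted peak. Junction-spanning ones were in EPCAM, OCLN and CLDN4 in the polyA list, and those of the rRNA-depleted list included CDH1, KRT8, OCLN and TJP1. Of 9 skeletal muscle genes 8 were matched, and only CKM had a peak, in both lists and in 1 block. A gene without a peak is not thereby without expression.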

How the data were processed

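MeRIP-seq peak lists of PK15 cells (polyA and rRNA-depleted RNA) and of fetal muscle were used. Per the submitters' processing notes, Trimmomatic, HISAT2 and the build Sscrofa11.1 were used. Peak caller, threshold, annotation and pooling of replicates are not given in the sources used here. Per the file headers, the deposited fold enrichment is the authors' ratio for each peak. The deposited p-value for each peak was not used as a filter. Expression files hold no PK15 samples and were not used here.

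Starts were taken as 0-based and printed 1-based. A duplicate polyA entry was dropped (16493 to 16492). Exonic length, gaps, overlaps (at least 1 exonic base, same strand) and placement by exonic midpoint in RefSeq transcripts were computed in Python 3.11.15 (numpy 2.4.6, pandas 2.3.3, pysam 0.24.0), with sequences from RefSeq and figures from matplotlib 3.10.9. The overlap and midpoint functions were tested on simulated data. Intervals are 95% Wilson intervals for counting error. With 1 list a preparation and no replicate columns, no test and no p-value was made. Peaks on unplaced scaffolds were not placed.

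Named genes are the 5 highest folds with a symbol and the 3 highest block numbers of each list, the 8 identical junction sets with the highest lower fold, and the members of the lists of m6A and exon junction complex genes. The rule for sequences, highest-fold coding peaks of at most 300 bases, gave 0 peaks. Those printed were taken further down the same order, and from rRNA-depleted members found in all 6 muscle lists, after values were seen, as were the junction windows. Members and lists were chosen with earlier results of these data known. Values of some genes that these rules name are not reported here. Alternatives were other fold, length, gap, block, overlap, stop codon, motif and coding settings.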

Additional observations from a re-analysis of the deposited data

Results flagged for a closer look

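The difference of the median fold between junction-spanning and 1-block peaks had opposite signs in the PK15 lists, 0.54 in the polyA list and -1.245 in the rRNA-depleted list. The difference of their overlap with the other list did too, 24.9 percentage points in the polyA list and -23.2 in the rRNA-depleted list. The opposite signs of fold did not hold in every setting. At 150 to 300 exonic bases the fold differences were -0.62 and -1.42, and in coding sequence -0.1 and -1.52. Each preparation has 1 list, so neither difference between the lists was tested.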

How the results depend on the processing

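Values are given for the polyA list, then the rRNA-depleted list, and of 54 alternative values 11 moved by less than their counting interval, 40 moved by more and 3 changed sign. The share of peaks with 2 or more blocks was 24.2% and 27.7%. It was 19.6% and 24.7% with gaps at RefSeq introns only, 25.3% and 17.3% at or above the median fold, and 17.2% and 21.0% with a second longest block of at least 30 bases. For the polyA list it was 23.3% with gaps of at least 50 bases and 22.8% at 150 to 300 bases.

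The differences that follow are junction-spanning minus 1-block peaks. Median fold differed by 0.54 and -1.245. It differed by -0.62 and -1.42 at 150 to 300 bases, where the polyA direction turned, and by -0.10 and -1.52 in coding sequence. The polyA coding value changed sign but lay within its counting interval of 0.473 to either side, so it shows no direction. For the polyA list it was 0.19 with all gaps at RefSeq introns and 1.1 with a second block of 30 bases. Overlap differed by 24.9 and -23.2 percentage points. It differed by 20.8 and -28.3 with the minimum overlap raised to 50% of the peak, 16.3 and -16.5 at or above the median fold in both lists, 17.0 and -33.8 at 150 to 300 bases, 28.7 and -25.8 with all gaps at RefSeq introns, 21.1 and -27.5 in coding sequence, and for the polyA list 29.6 with a second block of 30 bases. Exonic length differed by 88 and 31 bases, by 118 and 146 at or above the median fold, by 119 and 60 with a second block of 30 bases, and by 60.5 in polyA coding sequence. The coding share differed by 20.9 and 28.1 points, by 23.2 and 30.8 with 100 bases around the stop codon, and by 17.7 and 18.8 at or above the median fold. DRACH density differed by -0.019 and -0.049 per 100 bases, by -0.081 in polyA coding peaks, and the GGAC form by 0.027 and -0.13. The polyA DRACH difference of -0.019 lay within its counting interval of 0.026 to either side.

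At or above the median fold, 54.6% and 58.0% of members had a block under 50 bases, 77.7% and 85.8% of gaps were RefSeq introns, and 1912 and 777 genes had a member, by construction fewer than over all peaks. The cause of the other shifts was not tested. Alternatives on blocks of 30 bases, on all gaps at RefSeq introns and on overlap in coding sequence were chosen after seeing the data. No paired analysis was possible because each preparation has 1 list whose columns carry no replicate number. Depth is unknown, so a peak missing from a list may lie below its detection limit.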

Other observations

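Beyond the genes named by fold or block number, several large proteins collected junction-spanning peaks. In the polyA list PLEC, a cytoskeletal linker, and CLIP1, a microtubule plus-end protein, had 5 each, with folds of 1.44 to 33.6 and 1.69 to 7.25. MYO18A, an unconventional myosin, and CHD4, a chromatin remodeller, had 4 each, with folds of 2.85 to 7.58 and 2.02 to 6.62. In the rRNA-depleted list CENPF had 7, with folds of 2.1 to 5.65. CHD3 and BPTF, both chromatin remodelling proteins, had 6 each, with folds of 2.43 to 4.48 and 2.09 to 4.28, and SPTBN1, a spectrin, had 6 with folds of 1.67 to 2.91.

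Junctions held by all 8 lists also included one of HELZ, an RNA helicase, with folds of 10.8 in the polyA list, 6.5 in the rRNA-depleted list and 5.4 to 8.67 in muscle. LRP6, a Wnt coreceptor, had 13.3, 5.42 and 5.27 to 7.81.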
